A study of Mus musculus with 6 samples.

Results

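The 54 genes described here encode the machinery of mitosis: the kinases, cyclins and phosphatases that start it, the kinetochores and kinesins that move chromosomes, the checkpoint that times anaphase, and the proteins that build the spindle and cut the cell. They were taken as the rows with their symbols in the count tables, 54 of the 48397 gene symbols counted, and all 54 had enough reads to be tested. Cells were sorted from dissociated lungs of PdgfraEGFP/+ mouse pups at postnatal day 8. That genotype, in which green fluorescence reports the PDGF receptor gene Pdgfra, was shared by both groups. Dams had been injected intraperitoneally at E18.5 (embryonic day) with 5E1, an antibody against hedgehog ligands, or with control IgG, and live fluorescent cells of their pups gave 3 bulk RNA-seq libraries for each antibody. The labels do not say whether a library held 1 pup or several, or how many litters were used, and p-values here describe the spread of these 6 libraries, which may be technical. The cells are marked by the reporter alone, and no label divides them into fibroblast types.

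Entry into mitosis begins when cyclin B binds the kinase Cdk1 and Cdc25 phosphatases remove its inhibitory phosphates. Chromosomes then attach to spindle microtubules through kinetochores, and a checkpoint holds back the anaphase-promoting complex (APC/C) until all are attached. Most of these genes are transcribed mainly late in the cell cycle, so in a tissue their RNA marks dividing cells. In lung, fibroblasts of the alveolar wall divide in the days after birth while septa form.

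Gene reads numbered 16958433 to 28405457 in IgG libraries and 18857199 to 34318583 in 5E1 libraries. The sorted population carried its defining transcripts: Pdgfra measured 502 ± 77.5 and Col1a2 14963 ± 2538 CPM (reads per gene scaled to a common library size) in IgG, and 645 ± 73.3 and 21511 ± 6736 CPM in 5E1 (SD, n = 3 each). The hedgehog targets Gli1, Ptch1 and Hhip summed to 981 to 1109 CPM in IgG libraries and 210.5 to 291 CPM in 5E1 libraries. IgG replicate 3 and 5E1 replicate 1 held 2 reads each of 4 Y-linked genes, against 3592 to 6913 in the other 4 libraries, which also held 5644 to 12487 Xist reads. Those 2 libraries had the highest summed level of the 54 genes in their groups. Markers of neutrophils were higher in 5E1, with 11 of 11 tested genes called higher and a summed level of 152 to 252 CPM against 16.4 to 21.4 CPM in IgG. Of 8 macrophage and monocyte markers 4 were called higher, and their sum was 145 to 273 CPM against 95.4 to 118 CPM. Endothelial markers summed to 106 to 228 CPM in 5E1 and 90.3 to 110 CPM in IgG (1 of 6 called higher), and epithelial markers to 180.3 to 436 CPM and 167 to 183 CPM (2 of 7 called higher). Erythroid markers summed to 255 to 1100 CPM in 5E1 and 159 to 197 CPM in IgG, with none of 6 called. Of 6 markers of the sorted mesenchyme, 1 was called higher (Col3a1). Of 4 genes of dividing granulocyte precursors (Elane, Mpo, Prtn3 and Ctsg), 3 were too low to test, and the 4 summed to at most 1.25 CPM in any library. The part of these transcripts in the results below was not tested.

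Reads of the mitotic genes were far fewer after 5E1. Summed over the 54 genes, the level was 1419, 1518 and 1560.2 CPM in IgG replicates 1 to 3, and 681, 291 and 425 CPM in 5E1 replicates 1 to 3. The highest 5E1 library thus lay below the lowest IgG library, and the mean was 3.22-fold lower in 5E1. As a share of gene reads, the 54 genes took 0.147% to 0.166% of an IgG library and 0.0285% to 0.0665% of a 5E1 library. In bulk RNA, fewer dividing cells cannot be told apart from less of these RNAs in each cell.

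By edgeR's quasi-likelihood test with Benjamini-Hochberg adjustment over all 16198 genes tested, 47 of the 54 were called lower in 5E1 at an adjusted p under 0.05. None was called higher by edgeR, DESeq2 or limma-voom, and none was higher at an unadjusted edgeR p under 0.05. Of all genes tested, 11.1% were called lower (1791 genes) and 12.1% higher (1966 genes). With library size alone in place of trimmed-mean scaling, 3274 genes were lower and 1312 higher, with the median gene at -0.14 on the log2 scale, and 49 of the 54 were lower. The 54 had a median log2 fold change of -1.99, and all genes tested one of 0.00. In 53 of 54 every 5E1 library lay below every IgG library, which was so for 21.4% of genes tested. Of the 54, 44 were called with a fall of at least 2-fold, against 3.01% of all genes tested, and 21 with a fall of at least 4-fold, against 0.883% of all genes tested. When IgG replicate 1, 2 or 3 was left out, 31, 27 and 28 of the 54 were called, and 22 when 5E1 replicate 3 was. With no low-count filter 17 calls ended, at adjusted p from 0.0516 to 0.137: those of Ccna2, Cenpf, Nuf2, Bub1, Espl1, Kif2c, Kif11, Kif14, Kif15, Kif18b, Kif23, Cenpe, Tpx2, Nusap1, Aurkb, Prc1 and Racgap1. With any of the 6 libraries left out, 53 of 54 log2 fold changes stayed below 0. In every one of these 6 fits the same 21 genes were called: 7 of the 9 mitotic entry genes, 4 kinetochore genes, 3 checkpoint and anaphase genes, 3 kinesins, 2 spindle and chromosome genes and 2 cytokinesis genes.

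**Figure D1:**
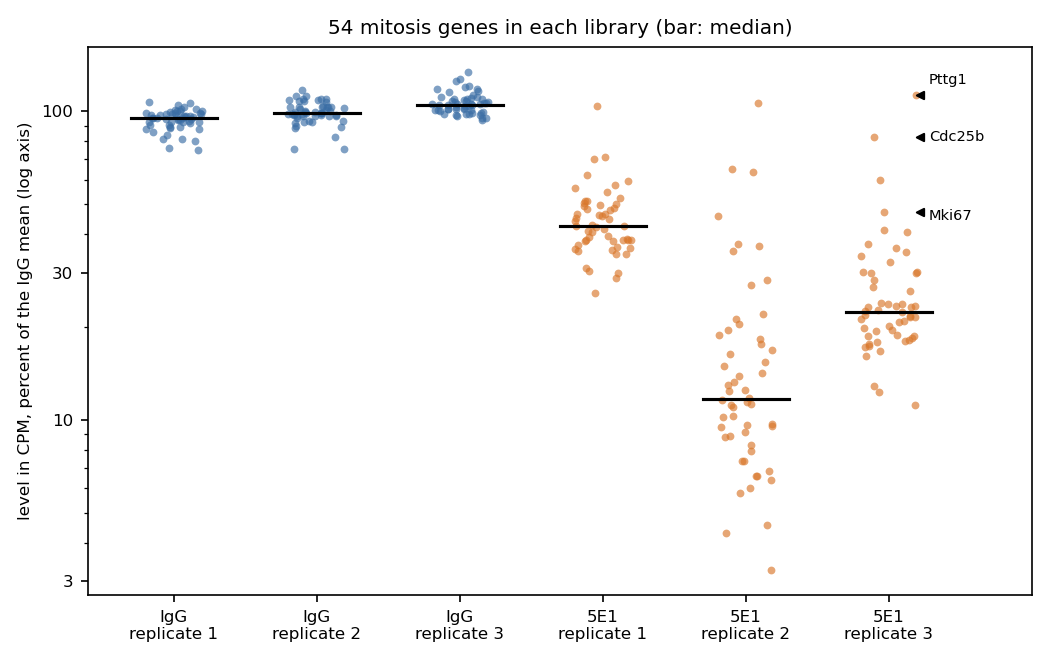
Level of each of the 54 genes in each library as a percentage of its IgG mean in CPM (log axis), 1 point a gene, with the median as a bar. The 5E1 medians were 42.6%, 11.7% and 22.5% in replicates 1 to 3, and arrowheads mark Pttg1, Cdc25b and Mki67 in 5E1 replicate 3.

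In these 54 genes the 5E1 libraries also differed among themselves, much more than the IgG libraries did. The median gene of the 54 stood at 42.6% of its IgG mean in 5E1 replicate 1, at 11.7% in replicate 2 and at 22.5% in replicate 3. Replicate 1 was the highest 5E1 library for 52 of the 54 genes, and replicate 2 the lowest for 50. The coefficient of variation of a gene had a median of 60.2% over the 5E1 libraries and 7.63% over the IgG libraries. Across genes in general, chi-square over degrees of freedom was 17.8 to 50.5 for 5E1 pairs and 14.8 to 18 for IgG pairs. This measure also grows with read depth, and 50.5 was the value of 5E1 replicates 2 and 3, the libraries with the most gene reads. The value of 5E1 replicates 1 and 3, 17.8, lay within the IgG range. The hedgehog target sum was 245, 210.5 and 291 CPM in 5E1 replicates 1 to 3, also lowest in replicate 2 but highest in replicate 3. Neutrophil markers summed to 252, 216 and 152 CPM in the same libraries, and macrophage markers to 199.9, 273 and 145 CPM. Whether any of these sums goes with the level of the 54 genes was not tested. With a term for the 2 libraries that held 2 Y-linked reads each, 53 of the 54 genes were called lower.

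Promoters of the members were searched for motifs known from this programme, and any part of the motifs in the fall was not tested. Many genes of this programme are known to carry a cell cycle homology region (CHR), bound by the repressor complex DREAM in resting cells and by the activators B-Myb and Foxm1 in dividing ones, and CCAAT boxes bound by NF-Y. RefSeq's table (GRCm38.p6) held a window of 250 bases before to 50 after the start for 47 of the 54 genes. The CHR motif TTTGAA, read on both strands, stood in 32 of 47 windows (68.1%), against 11.9% of the windows of 11165 tested genes. In 28 of these 32 the match nearest the 3′ end of the window lay within 50 bases of the start. As the window ends 50 bases after the start, this choice can favour matches near it. The position was not counted for other genes. The variant TTCGAA stood in 5 of 47 (10.6%, against 2.08%), and CCAAT in 36 of 47 (76.6%, against 38.0%). Matches were counted for each motif separately, whether or not they overlapped another, and a match is only a run of letters. Members with either CHR motif had log2 fold changes from -2.78 to -0.56 (median -2.06, n = 35). Those without one ranged from -2.27 to 0.11 (median -1.86, n = 12), and the difference was not tested. The windows of Nuf2, Mad2l1, Pttg1, Kif18a, Nusap1 and Birc5 held none of the 3 motifs. The 6 windows below, 1 for each role, are those of the highest gene in CPM with a TTTGAA match, written 5′ to 3′ on the gene's strand with matches to TTTGAA and to CCAAT on either strand in capitals.
Cdk1 (chr10:69352863-69353162, minus strand): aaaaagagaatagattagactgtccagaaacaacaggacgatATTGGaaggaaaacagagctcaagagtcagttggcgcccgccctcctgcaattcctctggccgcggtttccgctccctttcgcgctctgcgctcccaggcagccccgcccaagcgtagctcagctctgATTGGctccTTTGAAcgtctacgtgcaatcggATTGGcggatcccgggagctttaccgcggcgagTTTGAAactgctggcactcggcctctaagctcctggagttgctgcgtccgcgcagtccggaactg
Cenpf (chr1:189688037-189688336, minus strand): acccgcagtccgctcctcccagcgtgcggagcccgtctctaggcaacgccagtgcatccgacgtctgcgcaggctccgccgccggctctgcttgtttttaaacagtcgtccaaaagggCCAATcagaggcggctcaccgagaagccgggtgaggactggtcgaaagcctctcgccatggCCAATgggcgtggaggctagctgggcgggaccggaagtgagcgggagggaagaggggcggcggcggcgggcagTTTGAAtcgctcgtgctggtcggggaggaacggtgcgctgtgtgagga
Bub1b (chr2:118597961-118598260, plus strand): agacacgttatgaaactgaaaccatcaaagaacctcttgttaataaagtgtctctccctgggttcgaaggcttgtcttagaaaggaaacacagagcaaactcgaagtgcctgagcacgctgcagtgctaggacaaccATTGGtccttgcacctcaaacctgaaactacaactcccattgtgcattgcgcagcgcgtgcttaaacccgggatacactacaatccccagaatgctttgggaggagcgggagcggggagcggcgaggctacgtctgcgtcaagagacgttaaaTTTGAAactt
Kif11 (chr19:37376132-37376431, plus strand): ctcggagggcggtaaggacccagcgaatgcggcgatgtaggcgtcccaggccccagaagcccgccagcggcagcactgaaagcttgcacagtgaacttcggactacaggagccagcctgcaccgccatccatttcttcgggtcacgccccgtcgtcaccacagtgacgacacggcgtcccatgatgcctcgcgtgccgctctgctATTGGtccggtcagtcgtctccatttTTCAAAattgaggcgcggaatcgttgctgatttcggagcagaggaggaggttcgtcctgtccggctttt
Mki67 (chr7:135716330-135716629, minus strand): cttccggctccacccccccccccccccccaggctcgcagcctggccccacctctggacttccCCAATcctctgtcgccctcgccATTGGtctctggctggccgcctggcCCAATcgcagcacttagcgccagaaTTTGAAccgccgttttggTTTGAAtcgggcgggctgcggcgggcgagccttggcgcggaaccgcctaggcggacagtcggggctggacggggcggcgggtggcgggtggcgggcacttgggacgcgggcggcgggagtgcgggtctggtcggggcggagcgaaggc
Anln (chr9:22389157-22389456, minus strand): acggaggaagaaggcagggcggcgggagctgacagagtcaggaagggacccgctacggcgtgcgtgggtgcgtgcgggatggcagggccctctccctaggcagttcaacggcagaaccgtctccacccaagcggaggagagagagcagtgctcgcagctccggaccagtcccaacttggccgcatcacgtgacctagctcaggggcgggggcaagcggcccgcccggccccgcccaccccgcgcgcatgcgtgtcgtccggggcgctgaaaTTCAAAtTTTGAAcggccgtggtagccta
Cdk1 held 2 matches to TTTGAA and 3 to CCAAT, Mki67 2 and 3, and Anln 2 and none.

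All 9 genes of mitotic entry fell, with log2 fold changes from -2.59 (Cdc25c) to -0.56 (Cdc25b) and a median of -1.94. Cdk1, the kinase that drives mitosis, measured 43.4, 43.8 and 42.2 CPM in the IgG libraries and 21.7, 9.17 and 12.9 CPM in the 5E1 libraries. The IgG libraries were nearly alike and all 3 5E1 libraries were lower, a log2 fold change of -1.58 (SE 0.28; adjusted p 0.00826 by edgeR). Ccna2, cyclin A2 of S phase and early mitosis, measured 40.7, 40.8 and 44.8 CPM in IgG and 17.9, 5.83 and 9.79 CPM in 5E1. The fall was 1.94 on the log2 scale (SE 0.38; adjusted p 0.0161 by edgeR), a call that ended at adjusted p up to 0.0717 when any IgG library or 5E1 replicate 3 was left out. The B cyclins that activate Cdk1 fell side by side, Ccnb1 by 2.27 and Ccnb2 by 1.99 on the log2 scale. Plk1 and Nek2, kinases of centrosome maturation and separation, fell by 2.42 and 1.86, and Aurka, the Aurora kinase of spindle poles, fell by 1.52.

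The Cdc25 phosphatases had the fold changes at either end of this group. Cdc25b measured 22.6, 24.9 and 27.5 CPM in IgG and 14.1, 15.9 and 20.7 CPM in 5E1. Here 5E1 replicate 1 was the lowest library, the reverse of its rank for most members, and the gene fell by 0.56 on the log2 scale (SE 0.15; adjusted p 0.0212 by edgeR). That call ended when IgG replicate 2 (adjusted p 0.0587), IgG replicate 3 (0.0862) or 5E1 replicate 1 (0.0554) was left out. Cdc25c fell by 2.59 (SE 0.49), from 7.19 ± 1.27 to 1.24 ± 0.805 CPM (SD, n = 3 each), and had the fewest reads of any member in a library, 11 in 5E1 replicate 2. The ratio of Cdc25b to Cdc25c was 2.96 to 3.85 over IgG libraries and 7.62 to 48.5 over 5E1 libraries. The difference between the 2 phosphatases was not tested.

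**Figure D2:**
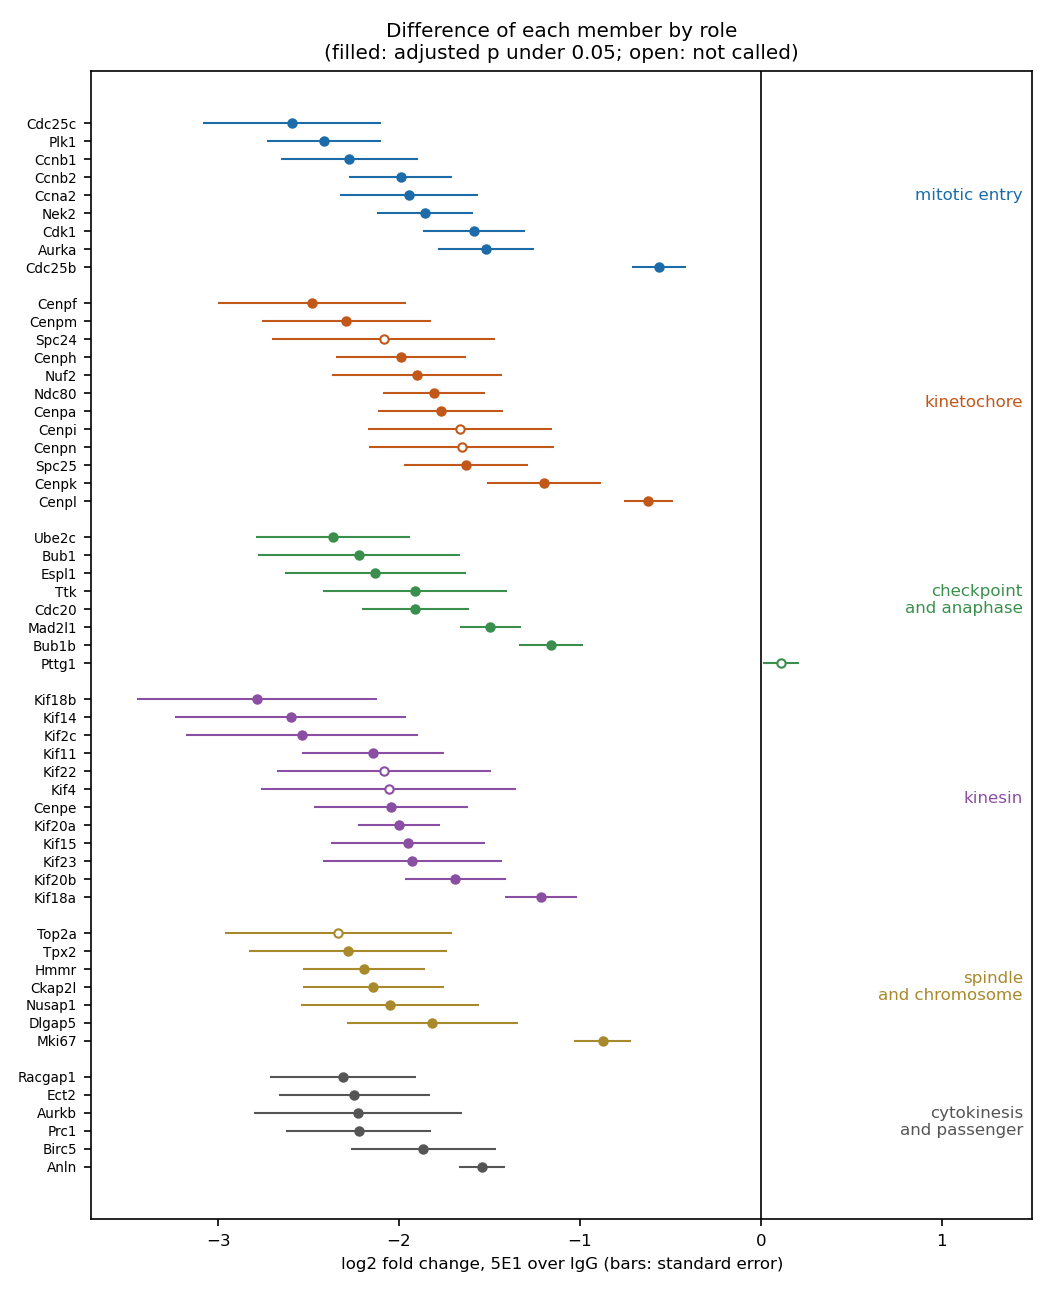
Log2 fold change of 5E1 over IgG for each of the 54 genes by role, with the standard error as a bar, filled where the edgeR adjusted p was under 0.05. Pttg1 (0.11, but -0.03 with library size alone) was the only gene above 0, and Cdc25b (-0.56), Cenpl (-0.62) and Mki67 (-0.87) were the members that fell least.

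Of the 12 kinetochore genes 9 fell and 3 did not pass, with a median log2 fold change of -1.79. Cenpf, a microtubule-binding protein of the outer kinetochore, measured 36.4, 40.5 and 35.9 CPM in IgG and 11.7, 2.47 and 6.74 CPM in 5E1. It had the largest fall of these genes, with a log2 fold change of -2.48 (SE 0.52; adjusted p 0.0232 by edgeR), though its adjusted p rose to at most 0.0902 when any IgG library or 5E1 replicate 3 was left out. Cenpa, the histone H3 variant that marks centromeres, measured 25.4, 34.05 and 31.5 CPM in IgG and 14.1, 5.12 and 7.92 CPM in 5E1. The groups did not overlap, and the gene fell by 1.77 on the log2 scale (SE 0.35; adjusted p 0.0125 by edgeR, and 0.0592 without 5E1 replicate 3). The 4 subunits of the Ndc80 complex, which couples kinetochores to microtubules, lay close together at -1.63 (Spc25), -1.81 (Ndc80), -1.90 (Nuf2) and -2.08 (Spc24). The call of Nuf2 ended, at adjusted p up to 0.105, when any IgG library or 5E1 replicate 3 was left out. Spc25 itself measured 21.6, 22.9 and 21.7 CPM in IgG and 12.1, 4.53 and 5.27 CPM in 5E1, and its adjusted p of 0.0140 became 0.0513 at most without IgG replicate 2 or 5E1 replicate 3.

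Spc24 did not pass (SE 0.62; adjusted p 0.0592 by edgeR), with 12.02, 15.7 and 17.3 CPM in IgG and 7.17, 1.101 and 2.84 CPM in 5E1. Cenpi measured 9.95, 7.84 and 10.7 CPM in IgG and 4.999, 0.923 and 3.42 CPM in 5E1 (log2 fold change -1.66, adjusted p 0.0545). Cenpn measured 9.03, 6.89 and 11.5 CPM in IgG and 5.27, 1.04 and 2.76 CPM in 5E1 (-1.65, adjusted p 0.0550). For all 3 the highest 5E1 library lay below the lowest IgG library, and all 3 were called lower with limma-voom and with the Y-linked term. Cenpi and Cenpn belong to the constitutive network of inner kinetochore proteins, of which Cenph (-1.99), Cenpm (-2.29) and Cenpk (-1.20) fell, the last not when IgG replicate 2 or 3 or 5E1 replicate 3 was left out (adjusted p up to 0.0918). A further subunit, Cenpl, fell by 0.62 (SE 0.14, adjusted p 0.00892), and it was called with each library left out.

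Checkpoint and anaphase genes gave 7 of 8 that fell, with a median of -1.91. Bub1b, the checkpoint kinase-like protein BubR1, measured 31.8, 30.1 and 35.6 CPM in IgG and 19.3, 11.5 and 13.3 CPM in 5E1. Mad2l1, which encodes the checkpoint protein Mad2 that inhibits Cdc20, measured 29.1, 30.4 and 32.1 CPM in IgG and 14.2, 8.69 and 9.90 CPM in 5E1. Both were clear of overlap, with log2 fold changes of -1.16 (SE 0.18; adjusted p 0.00158 by edgeR) and -1.49 (SE 0.17, adjusted p 2.50e-04). Their partners in the checkpoint, Bub1 and the kinase Ttk, fell by 2.22 and 1.91 on the log2 scale with larger errors (SE 0.56 and 0.51). Cdc20, the activator of the APC/C in mitosis, fell by 1.91, and Ube2c, the ubiquitin-conjugating enzyme that serves it, by 2.37. The calls of Bub1 and Ttk ended, at adjusted p up to 0.127 and 0.103, when any IgG library or 5E1 replicate 3 was left out, and that of Ube2c (0.0535) when 5E1 replicate 3 was.

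Pttg1 was the exception among the 54. It encodes securin, the inhibitor of separase that the APC/C destroys at anaphase. Its level was 21.8, 21.6 and 22.7 CPM in IgG and 23.0, 23.5 and 24.9 CPM in 5E1. This gave a log2 fold change of 0.11 (SE 0.10; adjusted p 0.453 by edgeR), and -0.03 with library size alone. Espl1, which encodes separase itself, fell from 19.0 ± 3.33 to 4.49 ± 3.04 CPM (SD, n = 3 each; log2 fold change -2.13, SE 0.50, adjusted p 0.0272 by edgeR, and up to 0.102 when any IgG library or 5E1 replicate 3 was left out). The ratio of Pttg1 to Espl1 was 0.994 to 1.31 over IgG libraries and 2.98 to 14.1 over 5E1 libraries.

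**Figure D3:**
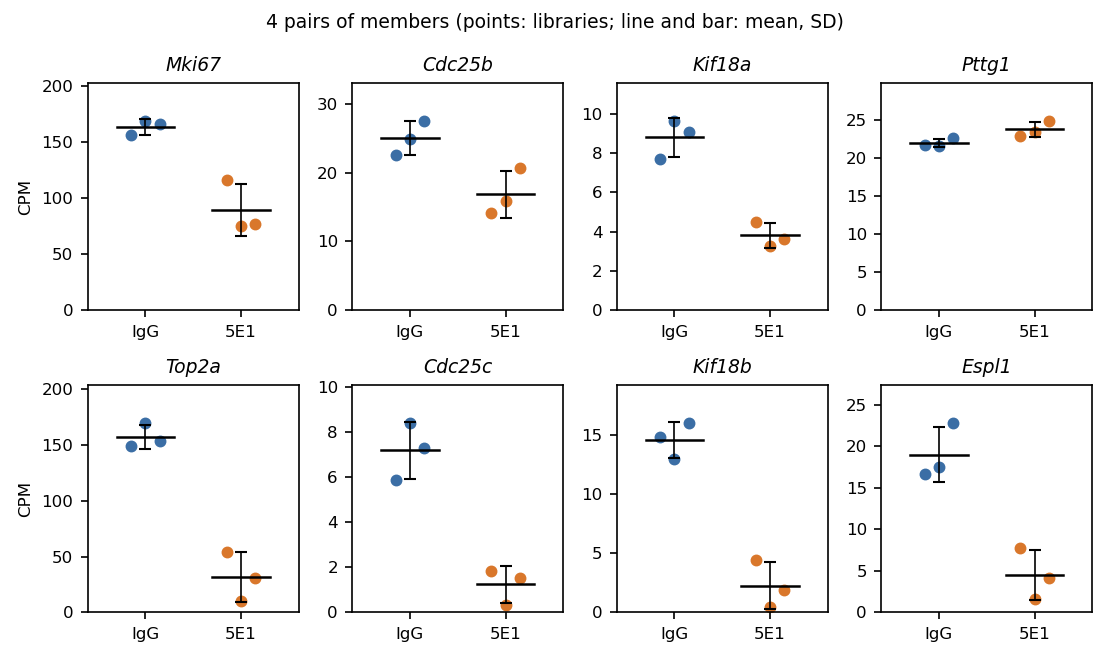
CPM of 4 pairs of members in each library (points, in replicate order within a group), with the group mean and SD; each panel has its own axis from 0. Log2 fold changes of the upper and lower gene were -0.87 and -2.33 for Mki67 and Top2a, -0.56 and -2.59 for Cdc25b and Cdc25c, -1.22 and -2.78 for Kif18a and Kif18b, and 0.11 (-0.03 with library size alone) and -2.13 for Pttg1 and Espl1. Top2a and Pttg1 did not pass the test, and no difference within a pair was tested.

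Of the 12 kinesins, motor proteins that walk along or take apart microtubules, 10 fell and 2 did not pass, with a median log2 fold change of -2.05. Kif11, the motor that pushes spindle poles apart, measured 43.4, 50.9 and 45.1 CPM in IgG and 17.8, 6.04 and 8.39 CPM in 5E1. Kif23, a motor of the central spindle, measured 28.6, 28.5 and 31.5 CPM in IgG and 14.3, 3.42 and 6.26 CPM in 5E1. Kif20a, which carries the Aurora B complex to the central spindle, measured 25.9, 28.7 and 32.3 CPM in IgG and 10.2, 5.09 and 6.74 CPM in 5E1. All 3 fell about alike, with log2 fold changes of -2.14, -1.93 and -1.9997 but unequal errors (SE 0.39, 0.49 and 0.23; adjusted p 0.0130, 0.0402 and 4.33e-04 by edgeR). The call of Kif23 ended at adjusted p up to 0.132 when any IgG library or 5E1 replicate 3 was left out, and that of Kif11 at 0.0576 without 5E1 replicate 3. Cenpe, the kinesin of the kinetochore, fell by 2.04, Kif2c, which takes microtubules apart at centromeres, by 2.53, Kif15, which helps keep the spindle bipolar, by 1.95, and Kif20b, a motor of late cytokinesis, by 1.69. The calls of Cenpe, Kif2c and Kif15 ended, at adjusted p up to 0.0789, 0.122 and 0.0864, when any IgG library or 5E1 replicate 3 was left out.

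The kinesins at the ends of the range were Kif18b and Kif18a, both of the kinesin-8 family that trims microtubule plus ends. Kif18b had the lowest log2 fold change of all 54 genes, -2.78 (SE 0.66; adjusted p 0.0311 by edgeR), with 14.9, 13.0 and 16.0 CPM in IgG and 4.46, 0.476 and 1.88 CPM in 5E1. Its call ended at adjusted p up to 0.111 when any IgG library or 5E1 replicate 3 was left out. Kif18a fell by 1.22 (SE 0.20, adjusted p 0.00176) and was called with each library left out, with 5E1 libraries between 3.27 and 4.51 CPM. The ratio of Kif18a to Kif18b was 0.518 to 0.741 over IgG libraries and 1.01 to 6.88 over 5E1 libraries, a difference that was not tested. Kif14, a motor of cytokinesis, measured 10.2, 11.98 and 11.0 CPM in IgG and 4.02, 0.476 and 1.36 CPM in 5E1, the second lowest fold change (-2.60, SE 0.64, adjusted p 0.0303, and up to 0.113 when any IgG library or 5E1 replicate 3 was left out). The chromokinesins, which push on chromosome arms, did not pass. Kif4 measured 17.3, 17.6 and 18.48 CPM in IgG and 9.13, 1.07 and 3.28 CPM in 5E1 (-2.06, SE 0.70, adjusted p 0.0956). Kif22 measured 17.3, 16.7 and 22.1 CPM in IgG and 8.04, 1.28 and 4.46 CPM in 5E1 (-2.08, SE 0.59, adjusted p 0.0537). Both had folds near the median of the kinesins and no overlap between groups, and both were called lower with DESeq2 and with limma-voom. Kif22 was named after its values were seen.

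Spindle and chromosome genes gave 6 of 7 that fell, with a median of -2.14. Mki67, the proliferation antigen Ki-67 that coats mitotic chromosomes, measured 156, 169 and 166 CPM in IgG and 116, 75.2 and 77.1 CPM in 5E1. Top2a, the topoisomerase that untangles sister DNA, measured 149, 169 and 153 CPM in IgG and 54.2, 10.1 and 30.7 CPM in 5E1. The pair stood at almost the same CPM in each IgG library, the ratio of Mki67 to Top2a being 0.998 to 1.08, and 2.14, 7.48 and 2.51 in the 5E1 libraries, a difference that was not tested. Mki67 fell by 0.87 on the log2 scale (SE 0.16; adjusted p 0.00458 by edgeR). Top2a, at -2.33, had a larger error and did not pass (SE 0.63, adjusted p 0.0596 by edgeR). It was called lower with DESeq2, with limma-voom and with the Y-linked term, where all 7 of these genes were. Tpx2, the spindle assembly factor that activates Aurora A, measured 42.4, 49.3 and 51.3 CPM in IgG and 18.1, 3.96 and 8.25 CPM in 5E1. The fall was 2.28 on the log2 scale (SE 0.55, adjusted p 0.0398, and up to 0.136 when any IgG library or 5E1 replicate 3 was left out). Hmmr and Ckap2l, which bind spindle microtubules, fell by 2.19 and 2.14, and Nusap1 and Dlgap5, which stabilise them, by 2.05 and 1.82. The calls of Nusap1 and Dlgap5 ended, at adjusted p up to 0.113 and 0.117, when any IgG library or 5E1 replicate 3 was left out, and that of Ckap2l (0.0503) when 5E1 replicate 3 was.

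All 6 cytokinesis and chromosomal passenger genes fell, with log2 fold changes from -2.31 to -1.54 and a median of -2.22. Anln, the cleavage furrow scaffold, measured 56.1, 55.6 and 57.1 CPM in IgG and 22.01, 15.5 and 20.9 CPM in 5E1. The groups were far apart, and it had the smallest adjusted p of the 54 (log2 fold change -1.54, SE 0.13, edgeR adjusted p 4.76e-05). Racgap1, the partner of Kif23 in the central spindle, measured 53.1, 53.3 and 57.5 CPM in IgG and 16.3, 4.97 and 12.4 CPM in 5E1. Prc1, which bundles the central spindle, measured 41.2, 42.8 and 46.9 CPM in IgG and 15.5, 4.79 and 8.47 CPM in 5E1. These fell by 2.31 (SE 0.40, adjusted p 0.0119) and 2.22 (SE 0.40, adjusted p 0.0123), the latter with an adjusted p of 0.0575 without 5E1 replicate 3. Ect2, which switches on RhoA at the cell equator, fell by 2.25, and Aurkb and Birc5 of the passenger complex by 2.23 and 1.86. The call of Aurkb ended, at an adjusted p up to 0.12498, when any IgG library or 5E1 replicate 3 was left out, that of Birc5 (up to 0.0713) when IgG replicate 2 or 3 or 5E1 replicate 3 was, and that of Ect2 (0.0575) when 5E1 replicate 3 was.

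Set side by side, the 6 roles had medians between -2.22 and -1.79, and the spread of log2 fold changes within a role was wider than that between medians. Kinetochore genes spanned -2.48 to -0.62, kinesins -2.78 to -1.22 and mitotic entry genes -2.59 to -0.56. No test was made between roles. Per kilobase of exon, the highest members in IgG were Ccnb2 (19.6 ± 0.963 CPM per kilobase), Top2a (17.5 ± 1.18) and Mki67 (16.3 ± 0.677), and the lowest were Kif14 (1.07 ± 0.0871), Kif18a (0.895 ± 0.101) and Cenpk (0.869 ± 0.230) (SD, n = 3 each). In 5E1, Pttg1 was the highest at 11.9 ± 0.502 CPM per kilobase, followed by Mki67 at 8.90 ± 2.30, and the lowest was Kif14 at 0.189 ± 0.178.

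Other genes of cell division mostly moved with them. Of 70 further mitosis genes 54 fell, 16 did not pass and none rose, with a median log2 fold change of -1.64 and a range of -3.03 to 0.06. The most abundant that fell were Hjurp, the chaperone of Cenpa, from 179 ± 5.997 to 111 ± 11.5 CPM, and Ckap5, a microtubule polymerase, from 97.3 ± 4.60 to 60.6 ± 7.71 CPM (SD, n = 3 each). Condensin genes, which compact chromosomes, fell in 7 of 8 (median -1.18), with Smc4 at -0.73 and Ncapd2 at -1.49. Cohesin genes, which hold sister chromatids and also shape interphase chromatin, gave 2 of 10 that fell, Rad21 (-0.46) and Smc3 (-0.25), and a median of 0.00. Of all genes tested, 11.1% were called lower. Cohesin genes called higher numbered 1 when IgG replicate 2 was left out, 3 with a filter at 5 CPM and 2 with the Y-linked term. Only 1 was called lower when IgG replicate 1, 2 or 3 or 5E1 replicate 1 or 3 was left out.

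Relatives and partners of the members were also counted. Of 15 APC/C genes, the core subunits together with Fzr1, which like Cdc20 is a co-activator, 4 were lower, 1 higher and 10 did not pass, with a median of -0.21. The 4 were Anapc1 (-0.29), Anapc7 (-0.30), Anapc10 (-0.56) and Fzr1 (-0.55), of which all but Anapc1 were named after their values were seen. Anapc1 fell from 184 ± 12.7 to 150.3 ± 10.1 CPM, and Anapc5 rose from 395 ± 19.8 to 521 ± 32.3 CPM (SD, n = 3 each). With library size alone 10 were lower and none higher, and the lower calls numbered 2, 0 and 1 when IgG replicate 1, 2 or 3 was left out, and 2 and 1 when 5E1 replicate 2 or 3 was. No gene was higher when IgG replicate 1 or 2 was left out. Kinesins without a main role in mitosis had a median of -0.01, with 4 of 25 tested lower and 1 higher. Kif3a and Kif3c, motors of cilia and of axons, fell by 0.33 and 0.41, and Kif21a rose by 0.89. The other lower calls, named after their values were seen, were Kif26a (-0.54) and Kif21b, which fell by 1.19 from 28.2 ± 2.29 to 12.4 ± 2.61 CPM (SD, n = 3 each), a fold change near that of the member Kif18a. With library size alone 8 were lower. The lower calls numbered 2 and 1 when IgG replicate 1 or 2 was left out, and 2 and 1 when 5E1 replicate 1 or 3 was, and the higher calls ran from 0 to 3 with 1 library left out. Of all genes tested 11.1% were called lower and 12.1% higher, and with library size alone 3274 of 16198 were lower. No test was made of the difference between these lists and the 54 genes.

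**Figure D4:**
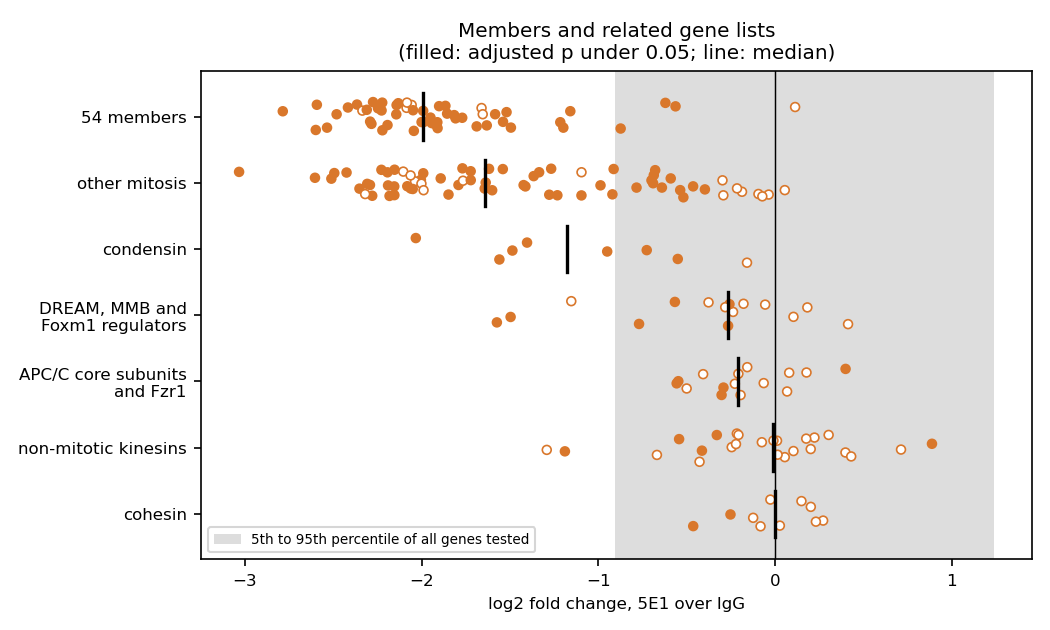
Log2 fold changes of 5E1 over IgG for the 54 members and 6 related lists, 1 point a gene, filled where the edgeR adjusted p was under 0.05, with list medians as lines and the central 90% of all genes tested in grey. The members (median -1.99), further mitosis genes (-1.64) and condensin genes (-1.18) have medians left of the grey band, and the medians of the other lists lie within it.

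Among 15 regulators of this programme, subunits of DREAM and of its activating counterpart with Foxm1 and NF-Y, 6 fell and none rose, with a median of -0.27, and 10 fell with library size alone. Rbbp4 and Tfdp1, the most abundant that fell, had log2 fold changes of -0.27 and -0.26. Foxm1, the forkhead activator of mitotic genes, fell from 34.8 ± 3.83 to 12.5 ± 4.56 CPM (SD, n = 3 each; log2 fold change -1.50, SE 0.25, edgeR adjusted p 0.00488), and Mybl2, which encodes B-Myb, measured 6.31 ± 1.75 and 2.93 ± 1.76 CPM (adjusted p 0.0597). The other regulators called lower were Rbl1 (-1.57, the largest fall of the 15), Lin9 (-0.77) and Nfya (-0.57). Foxm1, Mybl2, Rbl1, Lin9 and Nfya were named after their values were seen.

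In mm10 the 54 genes lie on 18 chromosomes, Cenpi and Kif4 on X. Exons of 16 of them overlap an exon of another annotated gene, by more than 500 bases for Kif20a (1271, with Cdc23), Prc1 (911, with Rccd1), Kif4 (832, with Pdzd11), Cdc25c (623, with Gm3550), Ube2c (592, with Tnnc2) and Ccna2 (510, with Exosc9), all on the opposite strand. As the strand setting of the counting is not given in the sources used here, reads of the 2 genes of such a pair may not be told apart. Ccnb1, Ccnb2, Kif4 and Kif22 each have an annotated pseudogene by name, so their values are less certain, reads that align more than once being counted apart from genes.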

How the data were processed

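Each library came as a file of unnormalised read counts by gene symbol, deposited by the authors and made from poly(A) libraries of a stranded kit per the labels' protocols. Build mm10 and the tools HTSeq 0.6.0, STAR 2.5.0c, DESeq2 1.10.0, Picard 1.126, R 3.5.1 and bedtools 2.17.0 are named per the submitters' processing notes. The sources used here do not give their roles, the annotation, the strand setting or how duplicates were handled. HTSeq summary lines were left out. Of a library, 20.4% to 42.9% was unaligned and 1.94% to 2.66% was ambiguous between genes. Reads aligned more than once made up 5.27% to 5.40% of IgG and 5.70% to 6.26% of 5E1 libraries. Reads in no gene made up 4.60% to 5.37% of IgG and 6.17% to 7.15% of 5E1 libraries. The lowest unaligned share and the highest of the other 3 shares were those of 5E1 replicate 2. Any part of these shares in the results was not tested.

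Groups and replicate numbers came from titles. Genes were kept with filterByExpr (minimum count 10, minimum total 15), scaled by TMM (trimmed means) and fitted with group as the only term by edgeR 4.0.16 in R 4.3.3 (glmQLFit, robust, and glmQLFTest). Tests are two-sided, with Benjamini-Hochberg adjustment across the whole set of tested genes. CPM is on TMM-scaled library sizes. Log2 fold changes use a prior count of 0.125, and SE was taken as the coefficient without that prior, divided by the root of F. The fit was tested on simulated data with the same dispersion for every gene and both groups. That does not show how calls hold where the spread differs between groups, as it did for the 54 genes. Chi-square over degrees of freedom was 14.8 to 50.5 for pairs of replicates, more than sampling noise gives. Each library was counted as a replicate, though this spread cannot show that libraries came from different pups or litters. Lowest read numbers behind a member were 59 in IgG (Cenpm) and 11 in 5E1 (Cdc25c), and intervals from reads would cover counting error only.

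Values in every library are given for the 3 members of a role highest in CPM, the 2 lowest and 2 highest fold changes, and members that did not pass. The last rule allowed up to 6, and Kif22 is the further one. Of related lists, the 2 most abundant called genes and up to 3 called higher are named. Members and lists were chosen with earlier results of these data known. The ratios between pairs of members were chosen after their values were seen. Positions and exon lengths are from GENCODE M21 (GRCm38, mm10). Exon length counts every base in any annotated exon of a gene, so levels per kilobase also depend on which exons are annotated. Where RefSeq's table lists several windows for a gene, the first was used. Alternatives used limma 3.58.1 and DESeq2 1.42.0 among others.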

Additional observations from a re-analysis of the deposited data

How the results depend on the processing

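All 54 members had a log2 fold change on the same side of 0 under RLE size factors, DESeq2, limma-voom, no low-count filter, no robust estimation, the replicate block, the Y-linked term and each library left out, and likewise the 52 members that passed the stricter filter (5 CPM in 3 libraries). The exception was library size alone, where the Pttg1 log2 fold change went from 0.11 to -0.0331 (adjusted p 0.855); the median of all genes then moved to -0.14, and 3274 genes were lower instead of 1791. With that scaling none of the 47 calls was lost.

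Members called lower numbered 47 with RLE, 49 with library size alone, 52 with DESeq2, 53 with limma-voom, with no robust estimation and with the Y-linked term, 50 with the filter at 5 CPM and 32 with no filter beyond 1 read. Where 53 were called, they were all members but Pttg1. With no filter, 3 kinesins instead of 10 and 3 cytokinesis genes instead of 6 were called, and the cause was not tested. With 1 library left out, the counts ran from 22 to 53 for members, and the members' median log2 fold change from -2.59 to -1.63. By role they ran from 7 to 9 for mitotic entry, 4 to 12 for kinetochore, 3 to 7 for checkpoint and anaphase, 3 to 12 for kinesins, 2 to 7 for spindle and chromosome, and 2 to 6 for cytokinesis. Over all genes, lower calls ran from 1073 to 1819 and higher calls from 1221 to 1885. No member was called higher in any of these fits.

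The replicate numbers did not pair the libraries: correlations of same-numbered deviations were -0.144, -0.008 and -0.071, and no library correlated best with its own number. With the replicate block 46 members were called lower, 4 calls being lost (adjusted p 0.0656 for Cenpf, 0.0654 for Kif2c, 0.103 for Tpx2 and 0.0598 for Aurkb) and 3 gained (Cenpi, Cenpn and Kif22), and 1500 genes were lower and 1720 higher.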
